A study of Mus musculus with 14 samples.

Results

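The genes described here build, modify, cut or anchor the extracellular matrix. They are 119 of the 20902 genes in the deposited table, taken by gene symbol: 11 fibrillar collagen chains, 9 basement membrane collagen chains, 23 other collagen chains, 11 laminin chains, 9 collagen-modifying enzymes, 5 lysyl oxidases, 16 matrix metalloproteinases (MMPs), 19 ADAMTS proteases, 3 TIMP inhibitors, 6 glypicans, 4 syndecans, and versican with the CCN proteins Cyr61 and Ctgf. The rule reads gene symbols only.

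RNA was sequenced from sorted retinal microglia and from whole retina of C57BL/6 mice: embryos (e16.5), pups in the first postnatal week (P7) and adults (P60). Microglia had the genotype Cx3cr1-GFP, in which green fluorescent protein marks cells that use the Cx3cr1 locus. They were sorted as cells positive for GFP and CD45 and negative for CCR2, with 3 libraries per age, each from pooled litters or retinas. Whole retina was wild type (WT), with 3 libraries from central retina at e16.5 and 1 library for each postnatal age. Genotype, sorting, RNA kit and tissue differ together between microglia and whole retina, and their parts in a difference cannot be told apart. The 3 whole retina replicates carry numbers only, and tests that use them measure a spread that may be technical.

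Fibrillar collagens form the cables of connective tissue, while type IV collagen and laminins form the sheets called basement membranes, which in the retina line its inner surface and its blood vessels. Collagen chains are hydroxylated in the endoplasmic reticulum by prolyl and lysyl hydroxylases before they fold into triple helices, and lysyl oxidases cross-link them outside the cell. MMPs and ADAMTS proteases cut the finished matrix, TIMPs inhibit them, and syndecans and glypicans carry heparan sulphate chains at the cell surface.

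Totals per library ranged from 8996298 to 17446905 counts for microglia and from 20469100 to 24361772 for whole retina. Levels are given as CPM, counts scaled to library size over all 14 libraries. The 8 microglial marker genes summed to between 8200 and 15362 CPM in sorted cells and to between 50.1 and 63.4 CPM in whole retina. The sorted cells thus carried the markers of their label. Among these, Cx3cr1 (marked by GFP) and Ptprc (CD45) were used for the sort. Markers of border-associated macrophages summed to between 34.2 and 90.0 CPM in microglia at e16.5, against 1.57 to 2.37 CPM in retina. Rod markers summed to between 725 and 4468 CPM in P60 microglia, highest in replicate 2, against 60608 CPM in retina. The part of such cells in the levels of matrix genes was not tested. In bulk samples, fewer cells of a type and less RNA per cell cannot be told apart.

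Summed over all 119 genes, microglia had a median of 1123 CPM at e16.5, 1356 CPM at P7 and 1343 CPM at P60. Whole retina had a median of 2989 CPM at e16.5, and single values of 2169 CPM at P7 and 1550 CPM at P60. A few genes made up much of the microglial sum. P4ha1, Plod1, Adamts1, Cyr61 and Col27a1 held 44.3% of it at e16.5, and Col27a1, Adamts1, P4ha1, Plod1 and Sdc3 held 55.9% at P60. The 5 most abundant members of whole retina at e16.5 held 31.6% of its sum, led by Col9a1, Gpc2 and Col4a1.

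**Figure D1:**
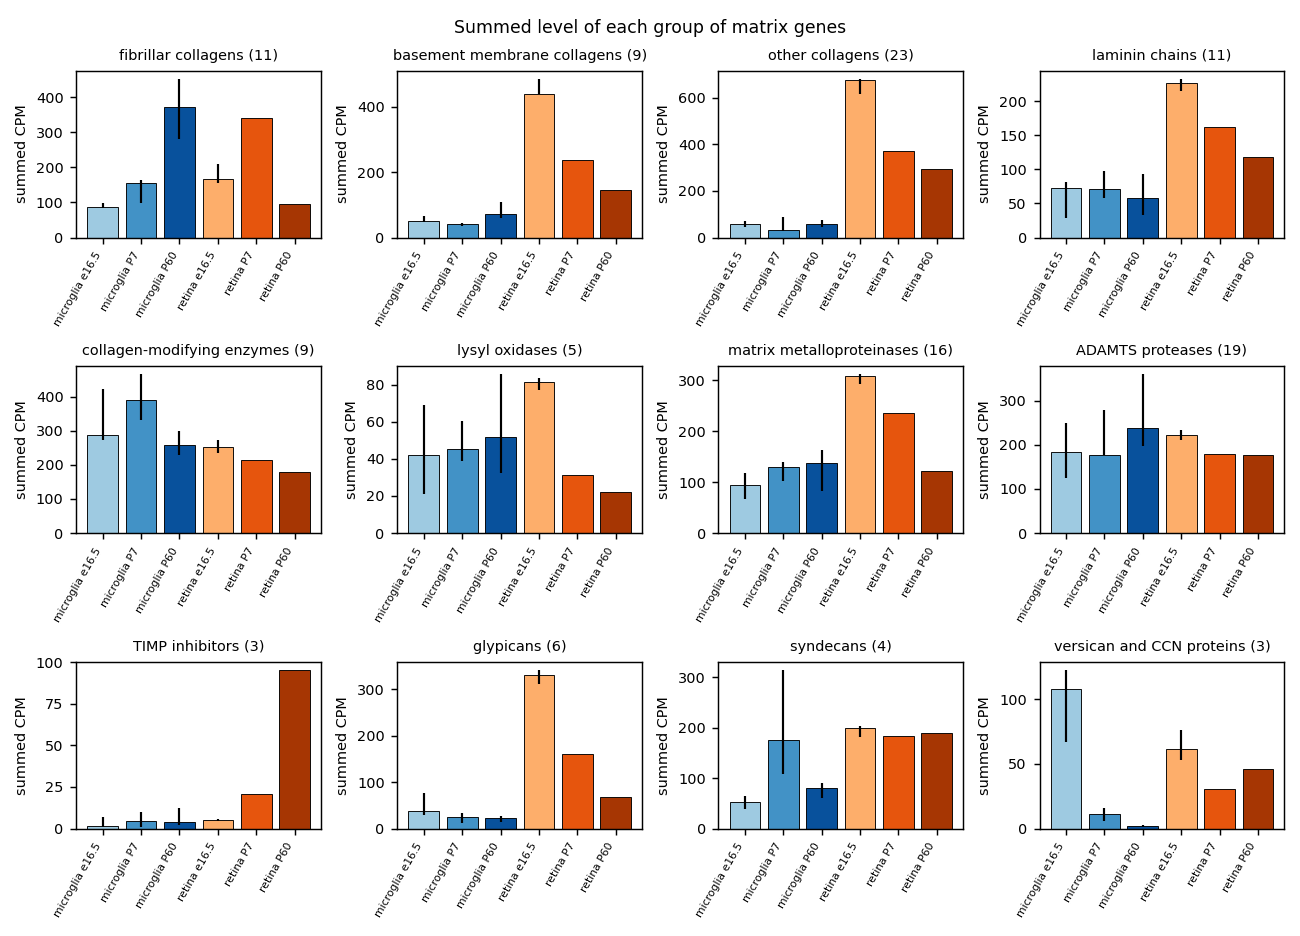
Summed CPM (y axis, from 0) of each of the 12 groups of matrix genes in microglia and whole retina at 3 ages; bars are medians of 3 libraries with lines from the lowest to the highest, and bars without a line are single libraries. The fibrillar collagen sum of microglia had a median of 372 CPM at P60, against 86.2 CPM at e16.5, and the sum of other collagens in whole retina had a median of 677 CPM at e16.5.

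Col27a1, which encodes the chain of the fibrillar collagen type XXVII, held most of the fibrillar collagen counts of microglia. Its level was 69.6, 73.3 and 60.3 CPM at e16.5, 79.5, 118 and 135 CPM in P7 libraries, and 274, 359 and 442 CPM in P60 libraries. The P60 libraries lay above every library of the younger ages. Whole retina held 0.959, 0.332 and 0.295 CPM at e16.5, and 6.01 CPM and 10.2 CPM at the postnatal ages, below every microglia library. In microglia Col27a1 rose from e16.5 to P60 by a log2 fold change of 2.42 (SE 0.31, adjusted p = 0.00326) in edgeR, and from P7 to P60 by 1.73 (SE 0.30, adjusted p = 0.0204). The call from P7 to P60 was lost when any P7 library, or P60 replicate 2 or 3, was left out, with gene length as an offset and in a fit of the 2 ages alone; the call from e16.5 to P60 was kept in each alternative run. On the per-length scale its level in microglia was 11.6 ± 2.19 FPKM at e16.5, 17.3 ± 3.55 FPKM at P7 and 62.8 ± 6.90 FPKM at P60 (SD, n = 3). Col27a1 lies on chromosome 4, from 63214004 to 63334991 on the plus strand of GRCm38.

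Col15a1, the chain of the basement membrane-associated collagen type XV, had a similar distance to whole retina. It was at 25.6, 30.3 and 27.1 CPM at e16.5, 29.8, 19.3 and 26.1 CPM in P7 libraries, and 87.8, 37.4 and 50.0 CPM in P60 libraries. Whole retina held 0.454, 0.142 and 0.147 CPM at e16.5. The P60 microglia libraries lay above those of both younger ages. The log2 fold change from e16.5 missed the threshold at 1.09 (SE 0.43, adjusted p = 0.18). The change from P7 to P60 was not called in edgeR, and DESeq2 called it. At e16.5 the log2 differences of microglia over whole retina were 7.35 (SE 0.55, adjusted p = 6.40e-05) for Col27a1 and 7.13 (SE 0.62, adjusted p = 0.00012) for Col15a1, both from edgeR. The 250 bases before the RefSeq starts of these genes are shown because both stand so far above whole retina. They were searched on both strands for GAGGAAGT (bound by PU.1, a factor of the macrophage lineage), GGAATG (TEAD factors), TATAAA (the TATA box) and GGGCGG (the GC box), and capitals mark matches.
Col27a1, chr4:63215162-63215411, plus strand: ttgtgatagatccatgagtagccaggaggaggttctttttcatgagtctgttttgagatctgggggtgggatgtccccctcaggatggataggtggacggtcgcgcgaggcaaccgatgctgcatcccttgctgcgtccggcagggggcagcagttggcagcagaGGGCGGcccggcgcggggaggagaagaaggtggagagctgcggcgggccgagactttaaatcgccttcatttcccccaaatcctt
Col15a1, chr4:47207762-47208011, plus strand: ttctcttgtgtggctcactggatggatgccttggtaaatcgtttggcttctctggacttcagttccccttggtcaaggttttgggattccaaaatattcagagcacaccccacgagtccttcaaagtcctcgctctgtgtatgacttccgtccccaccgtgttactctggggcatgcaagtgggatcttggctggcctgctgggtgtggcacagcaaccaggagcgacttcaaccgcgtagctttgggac
Col27a1 has a single match, GGGCGG at position -85 counted from the RefSeq start used, and Col15a1 has none. That start of Col27a1 lies inside the GENCODE bounds given above, which begin further upstream. Of 32851 windows of this length before RefSeq starts (GRCm38.p6), 32.7% hold GGGCGG, 12.6% GGAATG, 12.4% TATAAA and 2.44% GAGGAAGT. Of the 87 windows that belong to the 80 matrix genes matched by symbol, the shares are 62.1%, 11.5%, 13.8% and 1.15%. A match describes letters and not a bound site.

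The remaining fibrillar collagens lay below Col27a1 in every microglia library. Col1a1 and Col1a2, the chains of type I collagen, lay between 0.649 and 2.38 CPM and between 0.782 and 8.01 CPM over the 9 microglia libraries. Col3a1, the chain of type III collagen, had no count in any of them and was at least 63.3-fold lower than in whole retina at e16.5 (adjusted p = 0.0114, edgeR). Replicate 1 of whole retina stood apart for these genes, with Col1a1 at 18.4, 2.51 and 2.56 CPM and Col3a1 at 10.9, 0.902 and 2.41 CPM over the 3 libraries. Col2a1, the collagen of cartilage and vitreous, was at 4.92, 1.92 and 6.73 CPM in microglia at e16.5 and at 80.7, 65.2 and 71.6 CPM in whole retina, a log2 difference of -3.64 (SE 0.48, adjusted p = 0.000749). Col5a1 and Col5a2, chains of the type V collagen that starts fibrils, were lower in microglia by log2 differences of -4.98 and -4.31. Col2a1 was at 9.32, 23.5 and 10.1 CPM in P7 microglia libraries, against 269 CPM in the P7 retina library. Col11a1 was at 0.49, 11.6 and 6.40 CPM in microglia at e16.5, against 13.8, 14.6 and 9.39 CPM. Col11a2 was called higher in microglia at e16.5, at 3.85, 1.61 and 9.09 CPM against 0.959, 0.380 and 0.688 CPM. That call was lost without retina replicate 2 or 3.

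Whether matrix genes differ between embryonic, first-week and adult microglia was tested with edgeR over 16019 genes, among them 83 of the 119; the other 36 were too low to be tested. From e16.5 to P7 no member passed an adjusted p of 0.05, where 0.2% of all genes did (0.131% higher and 0.0687% lower). In that comparison 12 members had an unadjusted p under 0.05, and DESeq2 called 1, Sdc3. From P7 to P60, 1 member rose and 1 fell, where 1.35% of all genes passed (0.262% higher and 1.09% lower). From e16.5 to P60, 1 rose and 4 fell, where 3.36% of all genes passed (0.861% higher and 2.5% lower). The median log2 fold change of the tested members from e16.5 to P60 was 0.14, against 0.06 over all genes. The libraries of the ages did not overlap for 14 members between P7 and e16.5, where 14% of all genes did not, for 20 between P60 and P7 (24% of all genes) and for 20 between P60 and e16.5 (26.2% of all genes). Replicates of microglia were uneven for these genes: of members that reached 5 CPM in a library, 28.6% at e16.5, 17.8% in P7 libraries and 26% in P60 libraries differed at least 10-fold between libraries of the same age, against 10.5%, 7.39% and 16.8% of all genes.

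**Figure D2:**
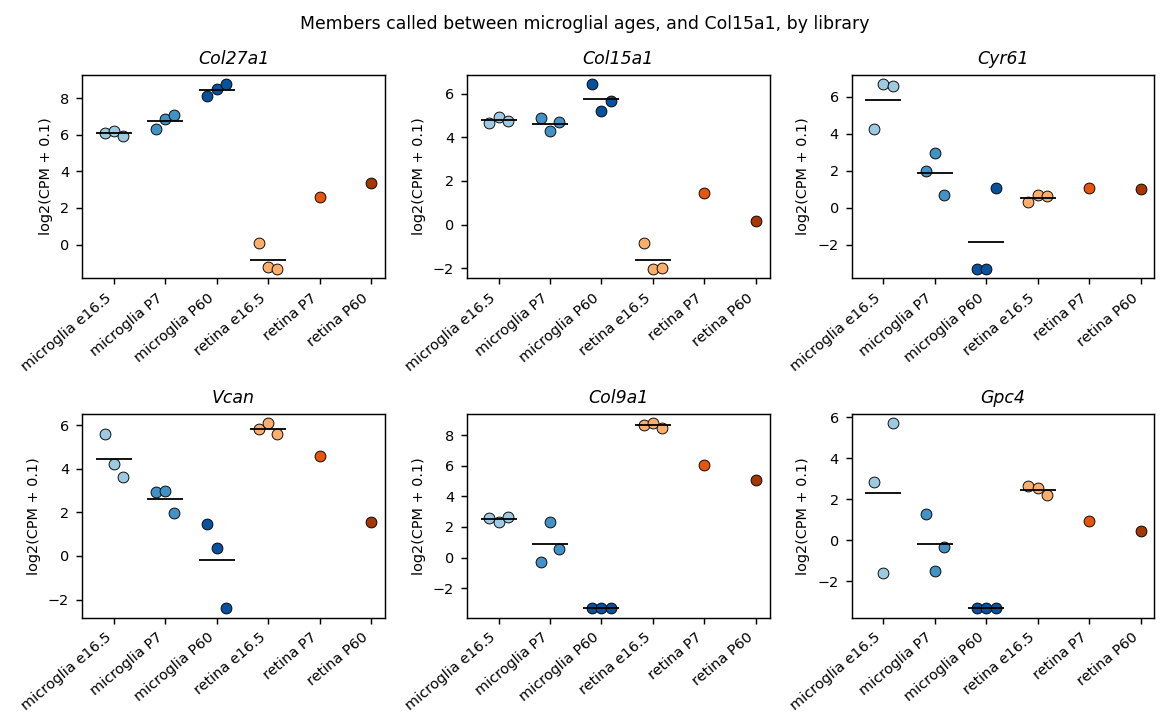
Level, as log2(CPM + 0.1), of the 5 genes called between microglial ages and of Col15a1 in each of the 14 libraries; points are libraries and lines the mean of groups of 3 on that scale. Col27a1 was highest in the P60 microglia libraries, from 274 to 442 CPM, whereas Col9a1 and Gpc4 had no count there and sit at the lower limit of the scale.

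Cyr61, a secreted CCN protein that binds integrins, fell from e16.5 to P60. Microglia held 18.8, 103 and 95.7 CPM at e16.5, 3.89, 7.64 and 1.5 CPM in P7 libraries, and 0, 0 and 1.96 CPM in P60 libraries. The e16.5 libraries lay above all later ones. The log2 fold change from e16.5 to P60 was -6.74 (SE 1.44, adjusted p = 0.0275) in edgeR, and that from e16.5 to P7 was -4.06 (SE 1.24, adjusted p = 0.363). The first of these calls was lost without e16.5 replicate 2 or 3, P7 replicate 1 or P60 replicate 2. Whole retina stayed between 1.11 and 1.96 CPM, so that at e16.5 microglia were higher by 6.10 (SE 0.74, adjusted p = 0.000511) on the log2 scale.

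Vcan, the large chondroitin sulphate proteoglycan versican, stood at 47.9, 18.4 and 12.1 CPM at e16.5, 7.46, 7.81 and 3.82 CPM in P7 libraries, and 2.64, 1.2 and 0.0890 CPM in P60 libraries. The ages did not overlap. The log2 fold change from e16.5 to P60 was -4.31 (SE 1.04, adjusted p = 0.0449) in edgeR, a call lost when any microglia library other than P60 replicate 1 was left out. Whole retina held 55.8, 68.3 and 47.9 CPM at e16.5, which overlapped microglia, and 2.89 CPM at P60. The calls of both Vcan and Cyr61 were also lost when the fit held only these 2 ages, and with gene length as an offset. That of Vcan was lost with total-count scaling as well.

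Col9a1, a chain of the fibril-associated collagen type IX, and Gpc4, a glypican, had no count in P60 microglia. Col9a1 was at 5.90, 4.91 and 6.33 CPM in microglia at e16.5 and at 0.730, 5.01 and 1.36 CPM in P7 libraries. At P60 it was at least 63.0-fold lower than at e16.5 (adjusted p = 0.0189, edgeR) and at least 26.1-fold lower than at P7 (adjusted p = 0.0490), against a floor of 3 counts over the group. The first of these was lost without e16.5 replicate 2 or 3, and the second when any 1 microglia library was left out. The second was also lost with total-count scaling, without a filter, with gene length as an offset, with the replicate block and in a fit of the 2 ages alone. Gpc4 was at 7.05, 0.230 and 52.2 CPM at e16.5, which differ widely among themselves, and was at least 219-fold lower at P60 (adjusted p = 0.0448, edgeR). That call was lost when any microglia library other than e16.5 replicate 2 was left out. It was also lost with gene length as an offset and in a fit of the 2 ages alone. Whole retina held Col9a1 at 401, 444 and 357 CPM at e16.5, where microglia had 1.43% of its level. Over the same ages the summed markers of retinal progenitors in microglia went from between 379 and 432 CPM at e16.5 to between 64.1 and 114 CPM at P60, with Hes5 and Sox2 at 0 at P60. The 12 endothelial markers went from between 110 and 185 CPM to between 38.5 and 96.1 CPM, and without Pecam1, which is far higher in microglia than in whole retina at e16.5, from between 31.2 and 102 CPM to between 19.6 and 65.5 CPM, which overlap. The part of such cells in these falls was not tested. The stretches before the starts of Cyr61 and Col9a1 (the first of its 2 RefSeq starts) are shown as those of genes that fell.
Cyr61, chr3:145649986-145650235, minus strand: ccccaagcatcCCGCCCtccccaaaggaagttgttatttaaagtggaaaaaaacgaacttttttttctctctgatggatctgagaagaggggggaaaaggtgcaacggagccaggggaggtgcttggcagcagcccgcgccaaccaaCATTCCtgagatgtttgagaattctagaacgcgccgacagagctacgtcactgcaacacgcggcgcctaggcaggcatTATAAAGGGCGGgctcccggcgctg
Col9a1, chr1:24177360-24177609, plus strand: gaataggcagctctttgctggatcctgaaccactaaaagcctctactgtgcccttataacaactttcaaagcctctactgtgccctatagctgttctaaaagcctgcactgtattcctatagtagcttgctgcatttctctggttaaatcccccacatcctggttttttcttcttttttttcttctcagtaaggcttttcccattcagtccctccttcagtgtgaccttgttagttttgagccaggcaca
Cyr61 carries TATAAA at position -25 directly followed by GGGCGG at -19, a further GGGCGG on the opposite strand at -239, and GGAATG on the opposite strand at -103. No searched motif occurs in the Col9a1 window.

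Microglia and whole retina were compared at e16.5, the age with 3 libraries of each, over 16140 genes in edgeR. Of the 119 matrix genes, 100 were tested; 15 were higher in microglia and 38 in whole retina, where 63.2% of all genes were called, 33.1% higher and 30.1% lower. The median log2 fold change, microglia over retina, was -1.56 for the tested members and -0.13 over all genes. The libraries did not overlap for 73 of the 100, against 78.4% of all genes. Scaling libraries by total counts alone moved the median of all genes by -0.38 and left 13 members higher and 42 lower. Of the 34 members with at least 20 CPM in whole retina at e16.5, 19 had a microglial level under 10% of it and 3 a level above it. Their median was 7.32%. In the same microglia libraries, summed markers of retinal progenitors stood at 6.15% to 7.00% of whole retina, and those of ganglion cells at 5.03% to 8.91%. The other cell type lists stood higher, the lowest being pericytes and smooth muscle cells at 18.7% to 29.8%. The part of such cells in the microglial levels was not tested.

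**Figure D3:**
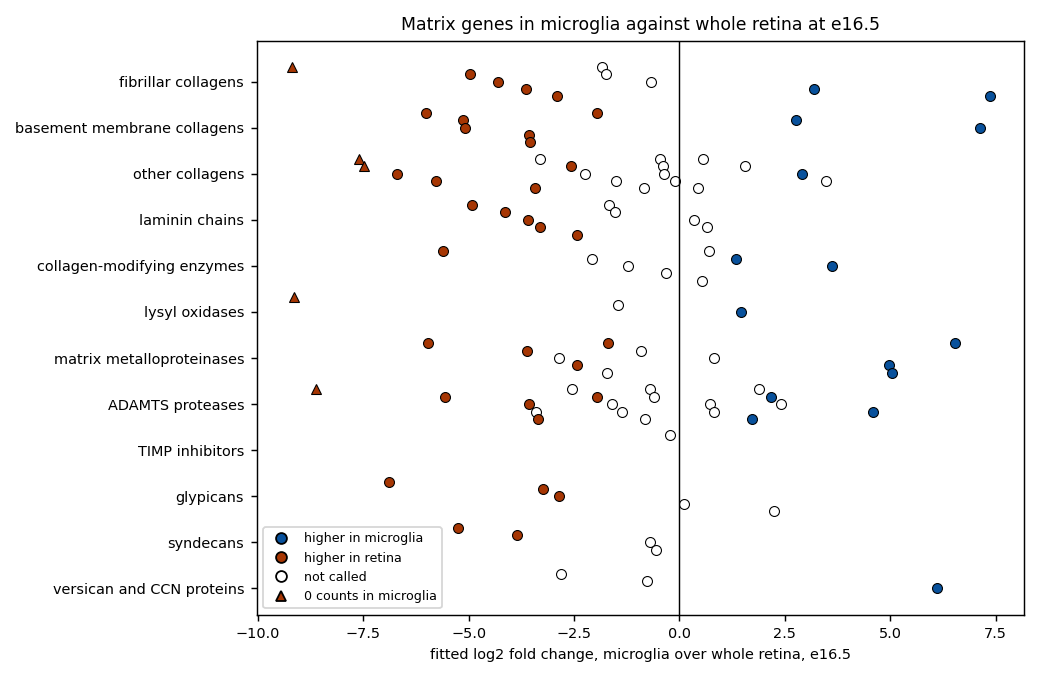
Fitted log2 fold change of microglia over whole retina at e16.5 (x axis) for the 100 tested matrix genes, by group (rows); filled points passed an adjusted p of 0.05, open points did not, and triangles had no count in microglia, so that their place depends on the fit. Of the 8 basement membrane collagens tested, 6 lie on the retina side and 2, Col15a1 and Col4a4, on the microglia side.

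Basement membrane collagens were called lower in microglia for 6 of 8 tested and higher for 2, against 30.1% and 33.1% of all genes. Col4a1, the main type IV collagen chain, was at 2.21, 1.84 and 1.14 CPM in microglia and at 134, 161 and 136 CPM in retina, a log2 difference of -6.01 (SE 0.32, adjusted p = 1.63e-05). Its partner Col4a2 was at 4.01, 4.06 and 10.2 CPM against 94.7, 97.0 and 88.9 CPM, a log2 difference of -3.57 (SE 0.43, adjusted p = 0.000509). The 2 groups lay far apart for both genes. The pair is read outwards in opposite directions on chromosome 8, with annotated ends that share 22 bases. In CPM, microglia held 1.21% of the retinal level of Col4a1 at e16.5, and 0.597% and 2.26% at the later ages. Col18a1, a basement membrane collagen that carries heparan sulphate, was at 0.737, 2.22 and 2.36 CPM in microglia and 78.0, 81.3 and 82.4 CPM in retina. Per length, the distances of Col4a1 and Col18a1 at e16.5 were smaller, and that of Col4a2 was not. Col4a1 was at 5.85, 8.37 and 3.94 FPKM in microglia and 88.04, 98.08 and 81.76 FPKM in retina. Col18a1 was at 0.876, 4.71 and 4.87 FPKM against 24.92, 27.15 and 24.96 FPKM. The calls of Col4a1 and Col18a1 were kept with gene length as an offset, but the size of their differences depends on the scale. Col4a3 was lower by -1.95 on the log2 scale, which turned to 0.99 without a call when the gene length of each library was an offset. Its call was also lost with DESeq2, with the replicate block and without retina replicate 1.

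Among laminins, 5 of 9 tested chains were called lower in microglia and none higher, against 30.1% and 33.1% of all genes. The call of Lamb2 was lost without microglia replicate 1. Lama1, the alpha chain of the inner limiting membrane and of embryonic basement membranes, was at 8.68, 2.68 and 3.37 CPM in microglia and 75.3, 83.1 and 69.7 CPM in retina, a log2 difference of -3.59 (SE 0.50, adjusted p = 0.000928) in edgeR. Within microglia it had no count at P60, against 2.68, 16.5 and 0.0683 CPM in P7 libraries and the e16.5 values above. Neither change passed in edgeR (adjusted p = 0.0918 from P7 and 0.0679 from e16.5), and DESeq2 called both. Lama4, an alpha chain of vessels, was at 0.0819, 0.383 and 0.202 CPM in microglia and 3.23, 2.42 and 3.10 CPM in retina. Lamc1, the gamma chain of most laminins, did not follow them: 40.9, 50.8 and 18.2 CPM in microglia and 39.5, 33.5 and 39.1 CPM in retina overlapped. Lamb1, a beta chain, had a log2 difference of -1.53 (SE 1.04, adjusted p = 0.234). Markers of endothelial cells, which make basement membrane, summed to between 309 and 376 CPM in whole retina at e16.5, with all 12 detected, and to between 110 and 185 CPM in microglia, with 11 detected and Tek at 0. Kdr, at 352, 342 and 288 CPM, made up most of the retina sum. Without Kdr the order turned, with sums between 21.3 and 24.7 CPM in retina and between 97.0 and 121 CPM in microglia, where Pecam1 was at 75.0, 83.2 and 78.6 CPM against 3.83, 4.46 and 1.77 CPM. Their part in these differences was not tested.

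Of 19 other collagens tested, 6 were lower in microglia and 1, Col20a1, was higher, against 30.1% and 33.1% of all genes. Col9a1 and Col9a2, partners in type IX collagen, had log2 differences of -5.76 and -3.42. Col6a1, a chain of the beaded-filament collagen type VI, was at 0.819, 0.307 and 0 CPM in microglia and 56.8, 44.0 and 46.8 CPM in retina. Col23a1, a transmembrane collagen, was at 14.5, 12.5 and 11.4 CPM against 97.5, 93.6 and 105 CPM, the smallest distance among the 6 that were lower. With gene length as an offset the calls of Col23a1, Col5a1, Col11a2, Col4a3, Lama2, Lamb2, Gpc3, Adamts6 and Adamts10 were lost. Leaving out single libraries ended the calls of Col9a2 (microglia replicate 2 or any retina library), Col20a1 (retina replicate 1 or 2) and Col4a4 (retina replicate 2 or 3).

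Of 8 tested enzymes that prepare collagen chains, 2 were higher in microglia and 1 lower, against 33.1% and 30.1% of all genes. Plod1, a lysyl hydroxylase, was at 152, 96.4 and 98.2 CPM in microglia against 12.3, 11.6 and 12.3 CPM, a log2 difference of 3.63 (SE 0.26, adjusted p = 5.40e-05) in edgeR. It was 6.96-fold above whole retina at P7 and 4.03-fold at P60, where retina has 1 library and no test was made. Plod3, a further lysyl hydroxylase whose exons overlap those of Znhit1, was at 63.9, 53.1 and 34.1 CPM against 29.7, 23.6 and 23.4 CPM. P4ha1, the catalytic subunit of prolyl 4-hydroxylase, was at 164, 99.0 and 129 CPM in microglia and 116, 131 and 104 CPM in retina, with overlapping libraries. P3h4, a partner of prolyl 3-hydroxylase, was lower in microglia, at 0.410, 0.153 and 0.269 CPM against 17.2, 19.9 and 16.5 CPM. Per length, P4ha1 had 49.2 ± 9.24 FPKM and Plod1 43.5 ± 11.5 FPKM in microglia at e16.5 (SD, n = 3), above the level of Col27a1 at that age.

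Lox, the lysyl oxidase that starts cross-linking, was at 0.0819, 1.92 and 0 CPM at e16.5, 8.27, 6.88 and 14.1 CPM in P7 libraries and 11.7, 7.30 and 4.0 CPM in P60 libraries of microglia. The later libraries lay above those of e16.5. Neither change passed the threshold in edgeR (adjusted p = 0.475 to P7 and 0.163 to P60), and DESeq2 called that to P60. Loxl3, whose exons overlap those of Htra2, was higher in microglia at e16.5, at 19.5, 13.7 and 23.2 CPM against 8.63, 7.45 and 10.4 CPM, a call lost when any 1 retina library was left out. Loxl1, which acts on elastic fibres, had no count in microglia at e16.5 and was at least 61.0-fold lower.

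Of 11 MMPs tested, 3 were higher in microglia and 4 lower, where 33.1% of all genes were called higher and 30.1% lower. Mmp12, the macrophage metalloelastase, was at 27, 11.4 and 13.1 CPM in microglia and 0.555, 1.04 and 0.491 CPM in retina, a log2 difference of 4.97 (SE 0.62, adjusted p = 0.000607) in edgeR. Mmp19 was at 9.67, 13.8 and 4.98 CPM against 0.606, 0.237 and 0.246 CPM; its exons overlap those of Tmem198b, and its counts are uncertain. Mmp23 was at 2.46, 17.9 and 6.19 CPM against 0.202, 0.0949 and 0.0491 CPM. In contrast Mmp14, a membrane-bound MMP, was lower, at 30.6, 16.3 and 13.1 CPM against 80.6, 83.3 and 86.7 CPM, a log2 difference of -1.69 (SE 0.35, adjusted p = 0.00496). At P60 the order of Mmp14 was the opposite, with 26.5, 18 and 47.7 CPM in microglia and 10.7 CPM in the single retina library. Mmp15 and Mmp24, which are also bound to the membrane, were lower by -3.61 and -5.95, and exons of Mmp24 overlap those of BC029722.

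Of 19 ADAMTS proteases tested, 3 were higher in microglia and 5 lower, against 33.1% and 30.1% of all genes. Adamts2, which removes the amino-terminal propeptide of fibrillar procollagens, was at 16.5, 15.5 and 15.2 CPM in microglia and 0.757, 0.617 and 1.13 CPM in retina, a log2 difference of 4.59 (SE 0.47, adjusted p = 0.000259) in edgeR. Adamts1, which cuts versican, was abundant in both, with 44.1, 141 and 137 CPM in microglia and 72.4, 90.0 and 89.0 CPM in retina, and did not pass the test. Adamts10 and Adamts6 were higher by 2.17 and 1.71, and both calls were lost when any 1 retina library was left out. Among those lower, the call of Adamts12 was lost without microglia replicate 2 or any 1 retina library. That of Adamts20 was lost without retina replicate 2 or 3. Adamts13, the protease of von Willebrand factor, was lower by -5.56. Timp3, an inhibitor bound to the matrix, lay between 0.267 and 12.4 CPM in microglia, and its exons overlap those of Syn3.

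Cell-surface proteoglycans were called lower in microglia for 3 of 5 glypicans and 2 of 4 syndecans tested, and higher for none. Of all genes, 30.1% were called lower and 33.1% higher. The call of Gpc3 was lost without microglia replicate 1 or any 1 retina library. That of Sdc2 was lost without microglia replicate 2 or retina replicate 2. Gpc1 was at 2.21, 0.0767 and 0.337 CPM in microglia and 128, 122 and 144 CPM in retina, and Sdc1 at 1.31, 2.38 and 0 CPM against 57.6, 61.4 and 60.7 CPM. The groups were fully apart for both genes, and exons of Gpc1 overlap those of Ankmy1. Gpc2, whose exons overlap those of Gm43720, was at 11.5, 11.7 and 23.8 CPM against 147, 141 and 153 CPM at e16.5, whereas at P60 its microglia libraries, at 14.1, 19.8 and 20.8 CPM, lay above the retina library at 5.90 CPM. Sdc3, a syndecan of nervous tissue, was at 52.6, 41.9 and 14.3 CPM in microglia at e16.5, 234, 74.8 and 137 CPM in P7 libraries, and 68.8, 49.3 and 80.9 CPM in P60 libraries. Its P7 libraries lay above all e16.5 libraries, with a log2 difference of 2.00 (SE 0.53, adjusted p = 0.246) that missed the threshold in edgeR. Sdc4, which acts with integrins at focal adhesions, had P7 libraries at 78.1, 27.5 and 28.1 CPM. They lay above 6.14, 8.13 and 23.6 CPM at e16.5 and 12.1, 10.9 and 9.07 CPM in P60 libraries. Both changes missed the threshold in edgeR (adjusted p = 0.497 and 0.155), and DESeq2 called that from P7 to P60.

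With 1 whole retina library for each postnatal age, ratios were counted past 4-fold without a test. At P7, 10 of 110 members with at least 1 CPM were past 4-fold higher in microglia and 55 lower, where 44.3% of all genes were past it, 19.5% higher and 24.8% lower. At P60, 17 of 111 were higher and 53 lower, where 49.6% of all genes were past it, 24.3% higher and 25.3% lower. Col27a1 was 18.1-fold and 34.9-fold higher in microglia at P7 and P60, and Col15a1 9.08-fold and 52.3-fold. Lox, Loxl3, Mmp12, Mmp19, Plod1 and Adamts2 were past 4-fold higher for both ages.

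Within whole retina, 78 members reached 5 CPM; by P60, 15 were past 4-fold higher than the e16.5 mean and 22 past 4-fold lower, with no test. Among 12857 genes at that level, 1538 were past 4-fold higher and 1399 lower. Timp3 was at 4.29, 19.5 and 94.1 CPM at the 3 ages, and Ctgf, a CCN protein, at 4.91, 5.02 and 41.4 CPM. Both were highest at P60. Adamts3, a procollagen protease like Adamts2, was at 1.83, 18.4 and 50.3 CPM. Col2a1 was highest at P7, at 72.5, 269 and 42.3 CPM. Sdc1, at 59.9, 5.48 and 0.892 CPM, Gpc2, at 147, 68.0 and 5.90 CPM, Col9a1, at 401, 66.6 and 33.1 CPM, and Col5a2, at 33.3, 7.86 and 1.40 CPM, were highest at e16.5.

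**Figure D4:**
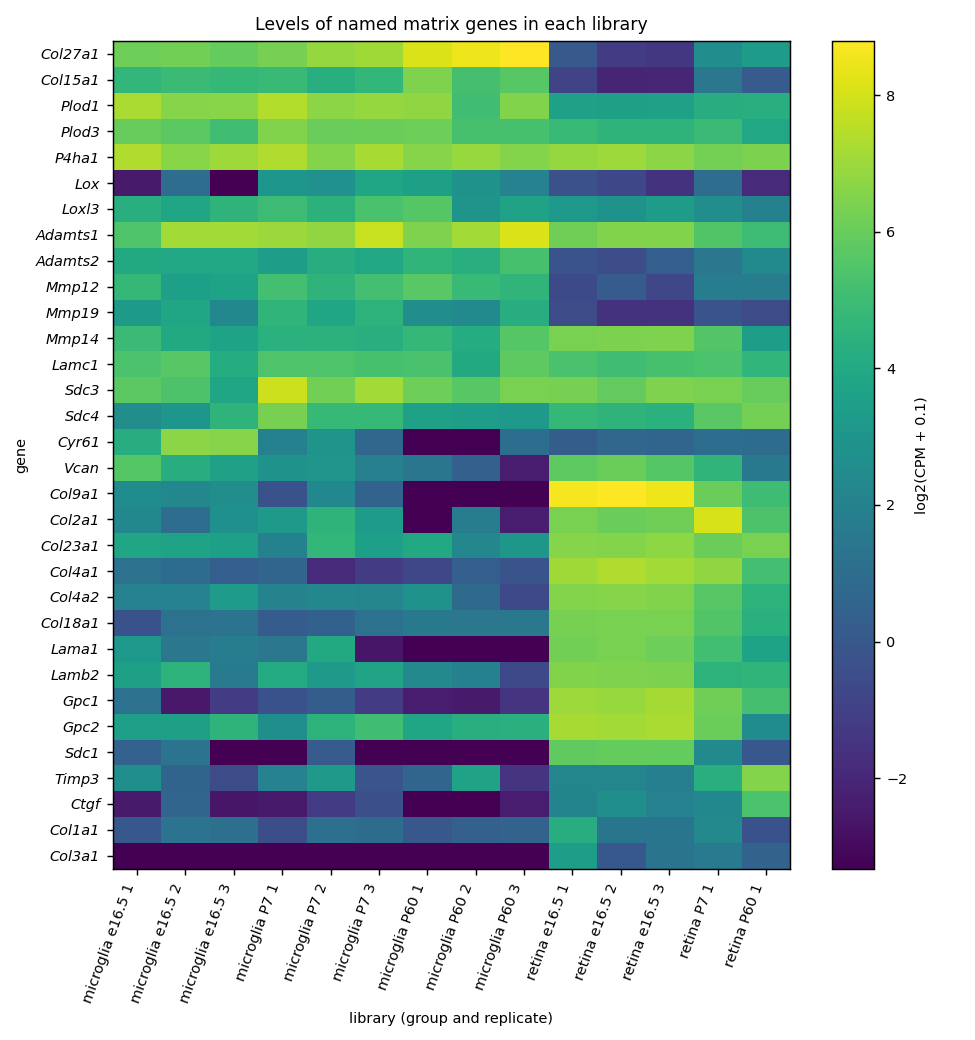
Level, as log2(CPM + 0.1) (colour), of 32 named matrix genes (rows) in each of the 14 libraries (columns). Col27a1, Plod1 and Mmp12 are brighter in microglia, Col9a1, Col4a1 and Gpc1 in whole retina, and Col3a1 has no count in any microglia library.

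Genes that work with the members were read from the same edgeR fits. Of all genes, 0.131% rose and 0.0687% fell from e16.5 to P7, and 0.262% rose and 1.09% fell from P7 to P60. From e16.5 to P60, 0.861% of all genes rose and 2.5% fell. Of 15 tested partners in collagen folding and secretion, 1 rose from e16.5 to P7: P3h2, a prolyl 3-hydroxylase, from 7.18 ± 2.86 to 94.6 ± 25.1 CPM (SD, n = 3; log2 fold change 3.69, adjusted p = 0.0103), and it stood at 220.2 ± 47.5 CPM at P60. Of 15 tested matrix glycoproteins, 2 rose from e16.5 to P7 and 3 fell from P7 to P60. Fn1, fibronectin, was at 36.3 ± 11.1, 176 ± 27.3 and 19.1 ± 3.66 CPM at the 3 ages, and Spp1, osteopontin, at 23.5 ± 18.9, 352 ± 151 and 8.43 ± 2.33 CPM, so both were highest at P7. Of 19 proteases and inhibitors outside the members, 2 rose to P7, Timp2 and the cathepsin Ctsb, and 4 fell from P7 to P60, among them Ctsb. From e16.5 to P60, P3h2 of the folding partners rose, and Fbn2 of the glycoproteins, Ddr1 of the receptors and Ctsb of the proteases fell. None of the 15 tested collagen and laminin receptors passed the threshold from e16.5 to P7 (0 at an unadjusted p under 0.05), and 1, Itgb1, fell from P7 to P60. No tested gene of heparan sulphate synthesis (16) or of TGF-beta signalling (13) passed it between any ages; at an unadjusted p under 0.05 there were 2 and 1 from e16.5 to P7, 2 and 1 from P7 to P60, and 2 and 2 from e16.5 to P60. Against whole retina at e16.5, where 33.1% of all genes were called higher in microglia and 30.1% lower, 11 of 18 proteases and inhibitors were higher and 4 lower, and 7 of 15 receptors higher and 3 lower. Lair1, a collagen receptor of leukocytes, was at 901 ± 26.2 CPM against 1.22 ± 0.303 CPM (SD, n = 3). Of 14 folding partners 2 were higher and 6 lower, among the latter Serpinh1, the collagen chaperone, at 3.68 ± 2.61 against 346 ± 3.31 CPM. Of 17 glycoproteins 5 were higher and 7 lower, of 18 heparan sulphate genes 4 and 5, and of 14 TGF-beta genes 6 and 4.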

How the data were processed

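RNA-seq of 9 microglia and 5 whole retina libraries was analysed from 1 deposited table. The count columns deposited by the authors hold whole numbers, treated as estimated counts because Salmon is listed. The submitters' processing notes list Salmon 0.9.1, DESeq2 1.20.0 and build GRCm38.p6, without saying which made which column. FPKM values deposited by the authors imply a gene length that differs between libraries (for Lamb3 from 33.2 to 73.6 bases in microglia), so FPKM is given for few genes. Columns of adjusted p-values and log2 ratios that the authors deposited, per the file headers, served only to count calls: the authors' deposited table holds 12, 21, 21 and 62 members under 0.05 for P7 against e16.5, P60 against P7, P60 against e16.5 and microglia against retina at e16.5.

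Counts were tested with edgeR 4.0.16 in R 4.3.3 (TMM, filterByExpr, quasi-likelihood F test, Benjamini-Hochberg over all genes, adjusted p under 0.05), with 1 fit of the 9 microglia libraries and 1 of the 6 libraries of e16.5, and the code was tested on simulated data. CPM uses TMM factors over 14 libraries, so CPM ratios and fitted changes can differ. Ratios without a test had 0.1 CPM added. Alternatives were other scalings, no filter, gene length as an offset, DESeq2 1.42.0, a fit of the 2 ages compared, the replicate block and leaving out each library. One count is worth from 0.0673 to 0.0978 CPM in microglia. Named genes were called members with at least 5 CPM (at most 25 a comparison, by fold change), the 2 highest by FPKM in each group of genes, a fixed set, and up to 2 risen and 2 fallen genes of each partner list; Adamts5, P3h1, Col4a3, Col4a4 and genes named only for a lost call or an overlap were added after their values were seen. The members, lists and tests were chosen with earlier results of these data known. All 119 members were found in the GENCODE annotation of GRCm38, where exons of 13 overlap another gene by at least 100 bases. No source used here says whether counting used strand. One gene of the protease list is not reported here.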

Additional observations from a re-analysis of the deposited data

Results flagged for a closer look

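Adamts5, a protease that cuts aggrecan and versican, and P3h1, a prolyl 3-hydroxylase, had differences of opposite sign in microglia and whole retina between e16.5 and P60. For Adamts5 the log2 difference was -3.39 in microglia and 0.83 in whole retina, which are -4.22 apart. For P3h1 it was 1.34 in microglia and -0.67 in whole retina, which are 2.01 apart. Within microglia neither passed the threshold in edgeR (adjusted p = 0.115 for Adamts5 and 0.440 for P3h1). DESeq2 called Adamts5 but not P3h1. The highest P3h1 microglia library at e16.5, at 6.14 CPM, lay next to the lowest at P60, at 6.26 CPM. For both genes the P60 microglia libraries lay to one side of all e16.5 microglia libraries. The single P60 retina library lay to the opposite side of all e16.5 retina libraries. The difference between microglia and retina was not tested.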

How the results depend on the processing

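From e16.5 to P7, DESeq2 and a fit of the 2 ages alone each called 1 member, against 0. From P7 to P60, against 2, the count was 1 with total-count scaling, 1 without a filter, 0 with gene length as an offset, 0 in a fit of the 2 ages alone and 9 with DESeq2; without single replicates it ranged from 0 to 2. From e16.5 to P60, against 5, it was 2 with the length offset, 2 in a fit of the 2 ages alone and 11 with DESeq2; without single replicates it ranged from 2 to 4. Without single replicates it was 0 from e16.5 to P7 throughout. Against whole retina at e16.5 the count of 53 ranged from 45 to 69 over all alternatives, and the counts past 4-fold from 55 to 72 at P7 and from 59 to 73 at P60. With the length offset, Col4a3 at e16.5 turned to 0.99 (log2), and the cause was not tested. Total-count scaling moved the calls over all genes from P7 to P60 from 42 higher and 175 lower to 61 and 99, and their median by 0.22.

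Replicate numbers are shared between groups. Same-numbered microglia libraries correlated in their deviations by 0.0249 to 0.247, with 5 of 9 pairs over 0.1. Those of microglia and retina at e16.5 correlated by -0.0016 to 0.0260, with 0 of 3 over 0.1. The microglia values were small but all positive. A microglia library correlated best with its own number at another age in 17 of 18 cases. Microglia libraries of the same number may therefore share more than the number, and the main fits did not pair them. What they share was not tested. With the replicate block the counts were 0, 1 and 6 for the 3 age comparisons and 53 against whole retina. The block ended the Col9a1 call from P7 to P60 and added Adamts16 from e16.5 to P60. Over all genes from e16.5 to P7 it gave 27 higher and 17 lower, against 21 and 11 without it. From P7 to P60 it gave 77 higher and 290 lower, against 42 and 175. From e16.5 to P60 it gave 189 higher and 568 lower, against 138 and 400. Low counts and uneven replicates limit what 3 libraries can show.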
